A study of Zea mays subsp. mays and Zea mays subsp. parviglumis and Zea luxurians with 126 samples.

Results

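The genes described here are the predicted targets of 4 miRNA families tied to copper in plants, miR397, miR398, miR408 and miR528, in anthers of *Zea* varieties. A gene was a member when a candidate cleavage site of 1 of these families lay on a transcript outside the *PHAS* loci and had an Allen score of at most 4, the Allen score being a penalty that grows with mispairing of miRNA and target. By this rule 116 genes were members, of 2539 target genes of any miRNA family under the same limits. They formed 119 pairs of gene and family, since 3 genes were listed for 2 of the families. The pairs numbered 5 for miR397, 19 for miR398, 66 for miR408 and 29 for miR528.

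In plants these families are known for lowering the demand for copper when the metal is scarce. They pair with transcripts of copper-binding proteins and guide their cleavage: laccases, which oxidize phenolics in the cell wall, for miR397; the copper and zinc form of superoxide dismutase for miR398; and the small blue copper proteins called plantacyanins, together with some laccases, for miR408. The family miR528 occurs in monocots, where laccases and ascorbate oxidase are among its known targets. The gene identifiers of these assemblies were not paired with protein names in the sources used here, so members are given by identifier and no role is assigned to any 1 of them.

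The mature sequences below were taken from the study's list of miRNAs expressed in anthers. They are shown because some forms of the same family differ at or next to the seed, bases 2 to 8 from the 5′ end, written in capitals. The first 2 were the same in all 7 varieties, and the next 3 are forms of miR408.
miR528-5p: uGGAAGGGgcaugcagaggag
miR398g-3p: uGUGUUCUcaggucgcccccg
miR408 of B73, Oh43, TIL11 and TIL25: uGCACUGCcucuucccuggc
miR408 of HP301 and Il14H: cUGCACUGccucuucccuggc
miR408 of RIL003: uGCACUGCcucuucccuggcu
miR397 of HP301, Il14H, Oh43, RIL003 and TIL25: uUGAGCGCagcguugaugagc
miR397 of TIL11: uUGAGCGUagcguugaugagc

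The miR408 form of HP301 and Il14H carried 1 more base at its 5′ end, which moved its seed by 1 position, and the form of RIL003 carried 1 more base at its 3′ end and kept the seed. The miR397 form of TIL11 differed from that of the other varieties by C8U, counted from the 5′ end. Counts by sequence cover predicted sites in the libraries of the varieties and leave out those of *ago18*. By these counts the miR528-5p sequence had 24 member genes, 8 of which passed the authors' test in some variety library. The miR408 sequence of B73, Oh43, TIL11 and TIL25 had 42 member genes, 9 of which passed, the form of HP301 and Il14H had 7 and the form of RIL003 had 4, and none of these passed. The sequences of miR398g-3p and of the more widespread miR397 had 14 and 2 member genes, and none passed. These counts are descriptive, because the varieties differed in depth and in the number of libraries.

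The values came from nanoPARE, a sequencing method for the 5′ ends of RNAs, which captures the new end of the downstream fragment after an miRNA-guided cut. Each of 63 libraries had a table of candidate sites, and a site's RPM is the number of 5′ ends at that base per M reads of the library. Anthers 0.4 and 2 mm long were sampled from 4 inbred maize lines (B73, HP301, Il14H, Oh43). The teosinte TIL11 was sampled at 0.4, 0.7, 1, 1.5 and 2 mm, TIL25 at 0.4 and 1.5 mm, and RIL003 at 0.4, 0.7 and 1.5 mm. The *ago18* material was sampled at 0.5, 2 and 5 mm. It compared the triple homozygous mutant (*ago18*-HM), in which *ago18a* and *ago18b* carry edited frameshift alleles and *ago18c* a Mu transposon insertion, with triple heterozygous siblings (*ago18*-HT) that carry the same alleles in 1 copy, both free of the editing transgene. Every group held 2 or 3 replicates from distinct plants. Maize grew in greenhouses and teosinte in a growth chamber with another day length, so growth conditions and the kind of *Zea* cannot be told apart. B73 and *ago18* sites were predicted on B73 RefGen_v5 and included additional miRBase sequences, the other varieties on their own assemblies and RIL003 on transcripts assembled by the authors, so that candidate miRNAs and gene identifiers differed among varieties. Anthers were taken whole, so fewer cells of a type and less RNA per cell cannot be told apart.

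The shallowest library had 1.35 M reads, the median one 7.55 M and the deepest 18.7 M. It was lowest in the 0.4-mm anthers of TIL25, at 1.71 to 2.56 M, and in the 0.5-mm anthers of *ago18*-HM, at 1.35 to 5.40 M, where a single read was worth up to 0.743 RPM. A site that a table did not list was taken as 0 RPM, and at these depths a 0 means only that no 5′ end was counted there. Members were thinly covered. Of the 119 pairs, 47 had at most 1 read in their highest library, 17 had 5 reads or more in some library, the median of the highest library was 2 reads and the maximum was 41 reads.

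Replicates differed in how alike they were. Across pairs of any family listed in either library, the correlation of log2(RPM + 0.1) between replicates reached 0.93 at best. The correlation includes pairs listed in only 1 of the libraries, whose part in it was not tested. In 2-mm *ago18*-HT anthers it was 0.86 between replicates 1 and 2, and replicate 3 stood apart from both, at −0.15 and −0.09. Correlations were low throughout in 2-mm anthers of B73 (0.11), TIL11 (−0.07 to 0.12) and *ago18*-HM (−0.12 to −0.05). So they were in 5-mm anthers of *ago18*-HM (−0.45 to −0.17) and *ago18*-HT (−0.27 to −0.12). Low values were also found in 0.4-mm anthers of TIL25 (0.10 to 0.17) and 0.5-mm anthers of *ago18*-HM (0.02 to 0.26). The results below on 2-mm *ago18* anthers are given with and without replicate 3 of *ago18*-HT, and the part of this spread in the other results was not tested beyond leaving out single libraries. A gene listed in only 1 of the groups compared entered the test through that group, which fixed its direction. For such genes the values are given and no test value.

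Of the 119 member pairs, 20 (16.8%) passed the authors' test (adjusted *P* value below 0.05 in the deposited tables) in 1 library or more, beside 1015 of 2756 pairs of all miRNA families under the same limits (36.8%). The pairs that passed were 8 of 29 for miR528, 11 of 66 for miR408, 1 of 5 for miR397 and 0 of 19 for miR398, and differences among the families were not tested. Positive pairs, those passing in 2 or more replicates of the same group, numbered 5 for miR528 and 5 for miR408, each in a different gene, and 0 for the other 2 families. Over the 24 groups, member pairs made up 18 of 566 positive pairs of all miRNA families (3.18%), and 13 groups had 1 or more. The lowest Allen scores among the positive members were 1.5, for the miR408 genes Zm00001eb054700 of B73 and Zv00002aa005064 of TIL11.

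The best covered member was a miR528 target that the study groups across the maize lines as 1 set of corresponding genes: Zm00001eb324900 in B73, Zm00027ab329680 in HP301, Zm00028ab333430 in Il14H and Zm00039ab331620 in Oh43. In all 4 lines the Allen score was 2.5. The site lay at base 579 of the transcript in B73 and in 1 isoform of Oh43, at bases 473 and 421 of the other Oh43 isoforms, and at base 489 in HP301 and Il14H. In teosinte, 2 genes were listed for miR528 with the same Allen score at base 584, Zv00002aa029734 in TIL11 and RIL003_31535 in RIL003. They are placed beside the set here by score and position and not by a test of orthology, a choice made after their values were seen for RIL003_31535.

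In B73, Zm00001eb324900 was at 0.984 and 0.916 RPM in 0.4-mm anthers and at 2.63 and 4.73 RPM in 2-mm anthers, and it passed the authors' test in all 4 libraries. The 2 lengths did not overlap. The difference on the log2(RPM + 0.1) scale was 1.79 ± 0.34 (SE, adjusted *P* = 0.0304, limma). In HP301, Zm00027ab329680 was listed at 0 and 0.474 RPM in 0.4-mm anthers and at 0.750 and 1.06 RPM in 2-mm anthers. Its higher level at 2 mm did not pass the test (2.05 ± 1.03, adjusted *P* = 0.170), and 1 of the 0.4-mm libraries held no read of it.

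In Il14H the order was the opposite. Zm00028ab333430 was at 0.702, 0.479 and 2.42 RPM in 0.4-mm anthers and at 0.133 and 0.231 RPM in 2-mm anthers, with no overlap of the lengths. The 2-mm values rested on 1 and 2 reads, and the difference of −1.92 ± 0.70 did not pass (adjusted *P* = 0.0664). In Oh43, Zm00039ab331620 was at 2.56 and 0.950 RPM in 0.4-mm anthers and at 1.18, 3.34 and 3.02 RPM in 2-mm anthers. The lengths overlapped in Oh43 and the difference was 0.52 ± 1.01 (adjusted *P* = 0.748).

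Averaged over the 4 lines, the mean difference of the miR528 set between 2 and 0.4 mm was 0.61 on the log2 scale (exact two-sided permutation within lines, *P* = 0.328, adjusted *P* = 0.328 over 7 sets). The 7 sets were chosen by the study on these samples and are not independent evidence. At 2 mm the lines differed with an unadjusted exact permutation *P* of 0.0103 (between-line sum of squares 16.9), which did not pass after adjustment over the 7 sets (adjusted *P* = 0.0722). The mean level at 2 mm was 3.68 ± 1.49 RPM in B73 (SD, n = 2), 2.51 ± 1.17 in Oh43 (n = 3), 0.907 ± 0.222 in HP301 (n = 2) and 0.182 ± 0.070 in Il14H (n = 2), and the values of B73 and Oh43 overlapped. At 0.4 mm the exact permutation *P* was 0.185 (adjusted *P* = 0.431).

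In TIL11 the miR528 site of Zv00002aa029734 was followed over 5 lengths. It stood at 0.222 and 0.169 RPM at 0.4 mm, at 1.02, 0.366 and 0.363 RPM at 0.7 mm, and at 0, 0.467 and 0 RPM at 1 mm. It was at 0.264, 0.187 and 0.425 RPM at 1.5 mm and at 2.84, 3.30 and 1.66 RPM at 2 mm. All 3 libraries of the 2-mm anthers lay above the other 11. Among these, the 0.7-mm values lay above the 0.4-mm values, and each other pair of lengths overlapped. The site was 3.14 ± 0.71 higher on the log2(RPM + 0.1) scale at 2 mm than at 0.4 mm (adjusted *P* = 0.0059) and 2.77 ± 0.64 higher than at 1.5 mm (adjusted *P* = 0.00865). The call against 0.4 mm was lost without replicate 2 of the 0.4-mm anthers, which left 1 library there. The gene of RIL003, RIL003_31535, was listed in 1 library with 3 reads (0.375 RPM), where it passed the authors' test. In TIL25 the nearest counterpart by position was Zx00003aa026804, at base 582 with an Allen score of 3.5, listed in 2 libraries at up to 0.462 RPM and passing in none. It lies outside the naming rule and was picked for its position after its values were seen.

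**Figure D1:**
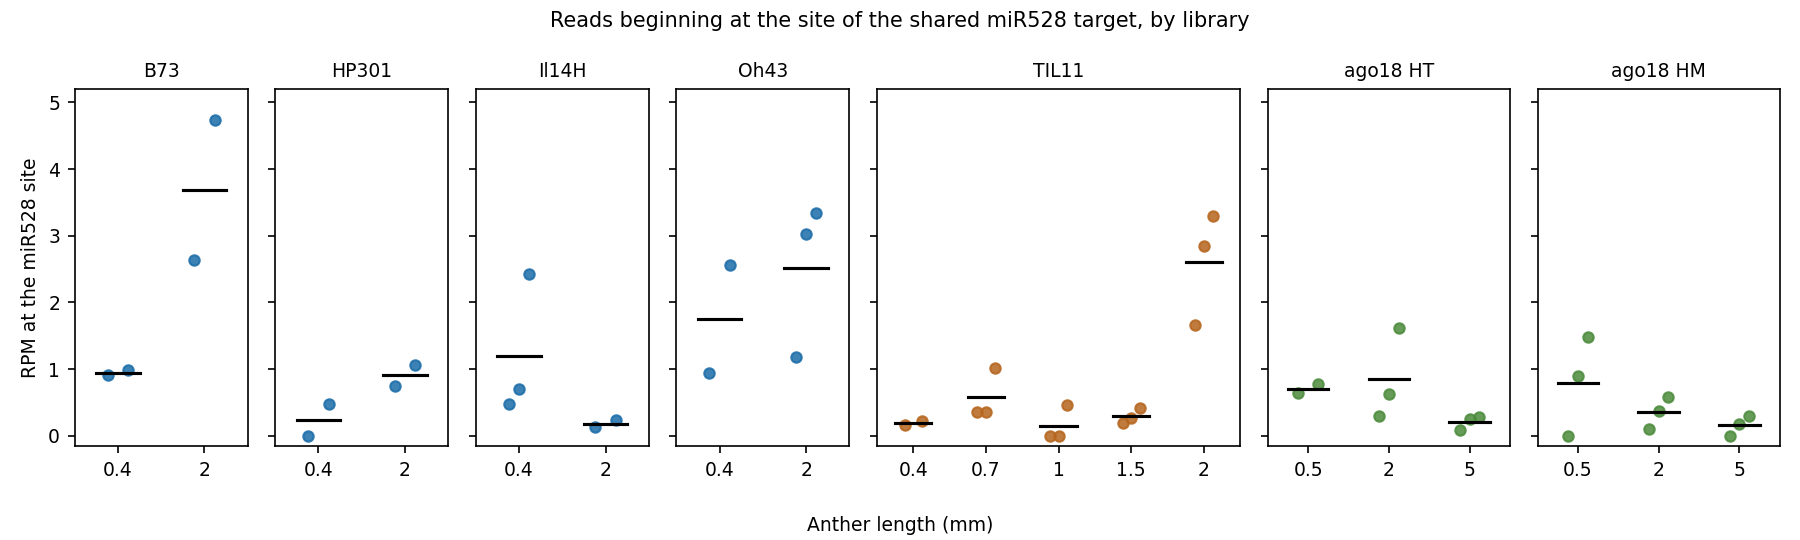
RPM of the miR528 site in each library (points) by anther length for B73, HP301, Il14H, Oh43, TIL11 and the *ago18* genotypes, with the group mean as a bar. The 2-mm libraries stand above the 0.4-mm libraries in B73, HP301 and TIL11, below them in Il14H and overlap them in Oh43.

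The miR408 targets with the most reads among those that passed the authors' test were read in 2-mm anthers of Oh43 and TIL11. In Oh43, Zm00039ab011680 (base 344, Allen score 2) was listed at 0 in both 0.4-mm libraries and at 0.453, 1.81 and 0.335 RPM in 2-mm anthers, and passed in all 3 of the latter. Zm00039ab221360 (Allen score 3) was likewise listed at 0 at 0.4 mm and at 0.453, 0.974 and 1.01 RPM at 2 mm, again passing in all 3. Both genes were thus seen at 1 length only.

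In TIL11, Zv00002aa001085 (base 67, Allen score 2) was listed at 0 in 11 libraries of 0.4- to 1.5-mm anthers and stood at 1.28, 2.89 and 1.36 RPM, from 9, 14 and 9 reads, in 2-mm anthers. It passed the authors' test in these 3. A different pattern was seen at Zv00002aa005064 (base 283, Allen score 1.5), which was listed in 5 of 14 libraries with 1 or 2 reads each, at 0.127 to 0.222 RPM over 0.4-, 0.7-, 1.5- and 2-mm anthers. It passed the authors' test in all 5 and was a positive pair at 0.7 mm.

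In B73, Zm00001eb054700 (base 255, Allen score 1.5) was at 0.151 and 0 RPM in 0.4-mm anthers and at 0.0674 and 0.115 RPM in 2-mm anthers, from 1 or 2 reads, and passed wherever it was listed. The lengths overlapped. Zm00001eb011280 was listed at 0 in both 0.4-mm libraries and at 0.135 and 0.115 RPM at 2 mm, from 2 reads and 1 read. The highest miR408 value of any variety belonged to Zx00003aa026022 of TIL25 (base 778, Allen score 4), at 0.390, 0 and 0 RPM in 0.4-mm anthers and at 3.35, 1.62 and 3.03 RPM in 1.5-mm anthers, from 20, 7 and 16 reads. The difference was 3.96 on the log2(RPM + 0.1) scale. Testing needed listing in 2 libraries, which only the 1.5-mm anthers gave. This favoured the higher direction, so no test value is given. In spite of its level the gene did not pass the authors' test in any library, the lowest adjusted *P* value in the deposited tables being 0.174. In the 0.4-mm libraries 1 read was worth 0.390 to 0.586 RPM.

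**Figure D2:**
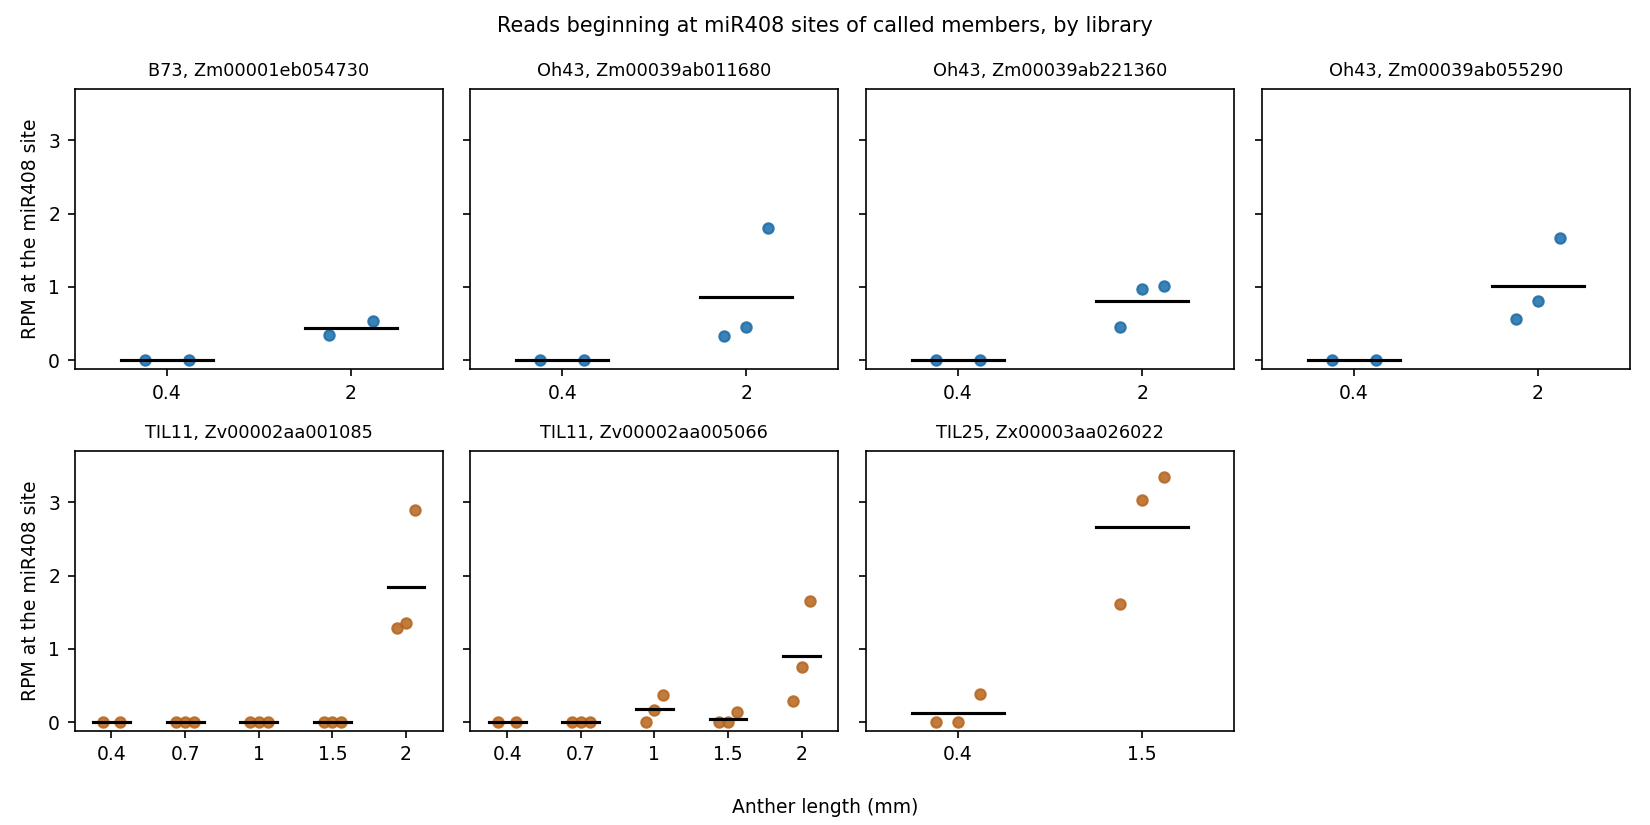
RPM at the miR408 site of 7 called members, in each library (points) by anther length in mm, with the group mean as a bar. For genes listed at a single length of a comparison, that listing fixed the direction. The genes of Oh43 and B73 and both genes of TIL11, Zv00002aa001085 and Zv00002aa005066, were listed at 0 at 0.4 mm. Zx00003aa026022 of TIL25 reached 3.35 RPM.

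Because the tables of B73 and *ago18* held both the anther form of miR408 and a miRBase form, neighbouring sites could be compared within a gene. In 5 genes the miRBase form had a site exactly 1 base downstream of the anther form. In Zm00001eb054700 the site at base 255 held 6 reads over all B73 and *ago18* libraries and passed in 5, and the site at base 256 held 5 reads and passed in 1. In Zm00001eb011280, bases 14 and 15 held 5 and 4 reads and passed in 2 libraries and 0 libraries. In Zm00001eb325220 (bases 1326 and 1327) they held 8 and 2 reads, in Zm00001eb033440 (bases 859 and 860) 6 and 4, and in Zm00001eb417610 (bases 1781 and 1782) 1 and 1, none of which passed. The anther-form site thus held at least as many reads as its neighbour in all 5 genes, by few reads and without a test. Zm00001eb325220 and Zm00001eb417610 fall outside the naming rule and were included for this pattern.

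In B73, Oh43 and TIL11, 1 gene each was listed for both miR408 and miR528, and in all 3 the sites lay exactly 57 bases apart. The miR408 site came first, at base 112 of Zm00001eb054730 in B73, 111 of Zm00039ab055290 in Oh43 and 181 of Zv00002aa005066 in TIL11, followed by the miR528 site at bases 169, 168 and 238. All 6 sites had an Allen score of 4, the weakest pairing admitted.

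In Oh43, Zm00039ab055290 was listed at 0 for both sites at 0.4 mm, and at 2 mm the miR408 site stood at 0.815, 1.67 and 0.559 RPM. The miR528 site stood at 0.272, 0.557 and 0.224 RPM in the same 3 libraries. In B73, Zm00001eb054730 was likewise at 0 at 0.4 mm, and at 2 mm its miR408 site was at 0.539 and 0.346 RPM. Its miR528 site, which is outside the naming rule and is given for comparison, was at 0.405 and 0.115 RPM.

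In TIL11, Zv00002aa005066 had its miR408 site at 0.284, 1.65 and 0.755 RPM at 2 mm, at 0, 0.374 and 0.163 RPM at 1 mm, at 0.142 RPM in 1 library of 1.5-mm anthers and at 0 in the other libraries. This miR408 site was higher at 2 mm than at 1.5 mm by 2.63 ± 0.68 (adjusted *P* = 0.0191). The call was lost without replicate 1 or 2 of the 1.5-mm anthers, and without replicate 2 or 3 of the 2-mm anthers. Of the 14 libraries of TIL11, 3 held both sites, 3 only the miR408 site, 3 only the miR528 site and 5 neither. Of the 17 *ago18* libraries, 3 held both sites of Zm00001eb054730, 1 only the miR408 site, 4 only the miR528 site and 9 neither. The 2 sites were thus read together in each 2-mm library of B73 and Oh43, and less regularly elsewhere. Of these 6 sites, the miR408 site of Zv00002aa005066 passed the authors' test in 1 library of 2-mm anthers and the others passed in none.

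**Figure D3:**
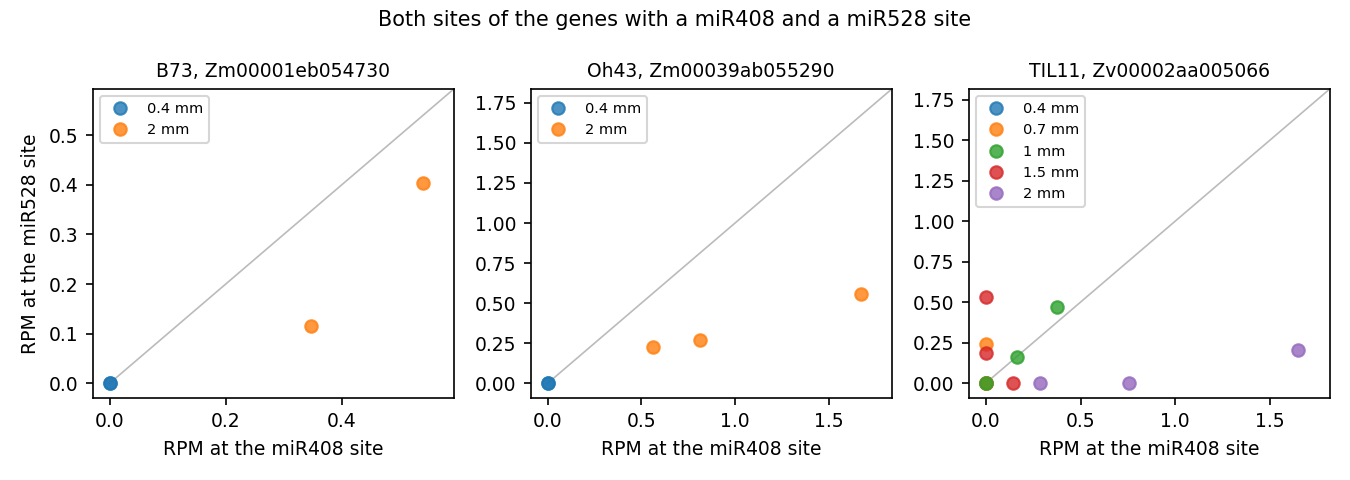
RPM of the miR408 site (horizontal axis) against the miR528 site (vertical axis) of the same transcript, 1 point per library coloured by anther length, in B73, Oh43 and TIL11, with a line of equal values. Libraries that hold neither site lie at the origin, the 2-mm libraries of B73 and Oh43 lie below the line, and in TIL11 several libraries lie on an axis.

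Outside these genes, 4 further miR528 members were called or led their variety. In Il14H, Zm00028ab055390 was listed at 0 in 0.4-mm anthers and at 0.133 and 0.231 RPM, from 1 and 2 reads, in 2-mm anthers. Zm00028ab348490 was at 0.0877, 0 and 0.0865 RPM in 0.4-mm and at 0.397 and 0.463 RPM in 2-mm anthers of the same line (1.80 ± 0.54, adjusted *P* = 0.0346). The direction of Zm00028ab348490 was opposite to that of the better covered Zm00028ab333430. Zm00028ab055390 was listed at 2 mm only, which fixed its direction. Neither Zm00028ab348490 nor Zm00028ab055390 passed the authors' test. In TIL25, Zx00003aa028071 (base 175, Allen score 4) was listed at 0 in 0.4-mm anthers and at 0.502, 0.231 and 1.13 RPM in 1.5-mm anthers, passing in 1 library. In RIL003, RIL003_5371 had 4 reads (0.547 RPM) in 1 library of 1.5-mm anthers and none elsewhere.

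None of the 19 miR398 pairs passed the authors' test. The highest value of any was 0.841 RPM, from 2 reads, at Zx00003aa001461 in 1 library of 0.4-mm TIL25 anthers. Zm00001eb394700 had the highest mean of the family in B73 and in *ago18* and appeared in 3 of 4 B73 libraries at up to 0.10 RPM and in 13 of 17 *ago18* libraries at 0.00582 to 0.335 RPM. Most of its values were fractions of a read, as when a read is divided among several places, so the gene's own share is uncertain. The leading miR398 genes of the other varieties, Zm00027ab017120, Zm00028ab017300, Zm00039ab402460, Zv00002aa036111 and RIL003_37302, were listed in 1 to 6 libraries and reached at most 0.516 RPM, in TIL11.

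The miR397 targets were the fewest. In Il14H, Zm00028ab072700 (base 115, Allen score 4) was at 0.351, 0.287 and 0.173 RPM, from 4, 3 and 2 reads, in 0.4-mm anthers and was listed at 0 in 2-mm anthers. It was 1 of 2 members called lower in longer anthers of any variety. In *ago18*, Zm00001eb270030 was read at 0.110 and 0.643 RPM in 0.5-mm anthers of *ago18*-HT and at 0 in those of *ago18*-HM, which was no call. At 2 mm it had 0.284 RPM in replicate 2 of *ago18*-HM, from 3.42 reads, a fractional and so uncertain count, and 0.125 RPM, from 1 read, in replicate 2 of *ago18*-HT. Zm00001eb298280 reached 1.35 RPM, from 3 reads, in 1 library of 0.5-mm *ago18*-HM anthers and was listed in 3 other *ago18* libraries at 0.125 to 0.251 RPM. The *ago18* values of both genes belong to sites of the other arm of the miR397 hairpin under miRBase names, whose sequences are not shown here. RIL003_2683 had 1 read in 1 library.

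The share of members called between anther lengths within a variety is given beside the share of all tested pairs of small RNA family and target. Pairs listed in at least 2 libraries were tested in 1 limma fit per table, and a call is an adjusted *P* value below 0.05. Of the 119 member pairs, 70 were listed in 2 libraries or more. A pair kept through 1 group alone had to differ, and no statement is drawn from these counts. Listing at a single length of the comparison held for 3 of the 4 called members of B73. It held for 2 of the 3 of Il14H, for all 5 of Oh43, for 1 of the 2 of TIL25 and, in TIL11, for 2 of 3 against 0.4 mm and 1 of 3 against 1.5 mm. In B73, 4 of 13 members were called (47.9% of all 234 pairs tested), 3 higher at 2 mm (6.41% of all pairs) and 1 lower (41.5%), with a median member difference of 0.26 against −1.04 over all pairs. The 1 lower was Zm00001eb058670, at 0.0636 and 0.0382 RPM in 0.4-mm anthers and 0 at 2 mm, whose values are fractions of a read and therefore uncertain. Without any 1 of the 4 libraries of B73, 0 or 1 of these calls was left, the 1 being Zm00001eb324900 without replicate 1 of the 2-mm anthers.

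In HP301, 0 of 4 members were called (64.9% of all pairs), and 0 had an unadjusted *P* value below 0.05. The leading miR408 gene there, Zm00027ab011590, was at 0 and 0 RPM at 0.4 mm and at 0.0536 and 0.456 RPM at 2 mm. Without replicate 2 of the 0.4-mm anthers, which left 1 library there, the difference was 1.55 for Zm00027ab011590 and 3.31 for Zm00027ab329680. In Il14H, 3 of 7 members were called (48.8% of all pairs), 2 higher (20.2%) and 1 lower (28.6%), with medians of 0.25 over members and −0.68 over all pairs. Without either 2-mm library none of these 3 calls held. Without replicate 4 of that length, which left 1 library there, the difference of Zm00028ab333430 was −2.18. The leading miR408 gene of Il14H, Zm00028ab333770, held 1 read in each of 2 libraries.

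In Oh43, 5 of 9 members were called (50.5% of all pairs), all higher at 2 mm (13.3% of all pairs), with medians of 1.22 over members and −0.21 over all pairs. All 5 were listed at 2 mm only, as were 79 of the 99 called pairs overall at 1 of the lengths. The fifth, Zm00039ab322370 for miR408, rested on 1 read in each 2-mm library. Without either 0.4-mm library only the miR408 call of Zm00039ab055290 was left.

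In TIL11, 3 of 18 members were called between 2 and 0.4 mm (16.3% of all 429 pairs), all higher at 2 mm (2.1%), and 3 of 18 between 2 and 1.5 mm (10.7%), again all higher (1.63%). They were the same 3 genes, Zv00002aa029734, Zv00002aa001085 and Zv00002aa005066, and both comparisons use the same 2-mm libraries. Refits that kept 2 or more libraries at both lengths gave 2 or 3 calls in each, all of these genes. Against 0.4 mm the call of Zv00002aa005066 was lost without either 0.4-mm library, and that of Zv00002aa029734 without replicate 2. These refits left 1 library at 0.4 mm. In them 2 miR408 members outside the naming rule were lower at 2 mm, Zv00002aa019699 by −1.69 (without replicate 1) and Zv00002aa012402 by −2.12 (without replicate 2). In TIL25, 2 of 6 members were called (27.8% of all pairs), both higher at 1.5 mm (26.4%), with medians of 1.33 over members and 1.26 over all pairs. There, 1 call was left without any 1 of the 0.4-mm libraries or without replicate 3 of the 1.5-mm anthers. Without replicate 1 of the latter 4 members were called, and the share over all pairs in that refit is not given here. In RIL003, 0 of 1 member was called (48.2%), the miR408 gene RIL003_5367, which was listed in 2 libraries with 1 and 2 reads.

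**Figure D4:**
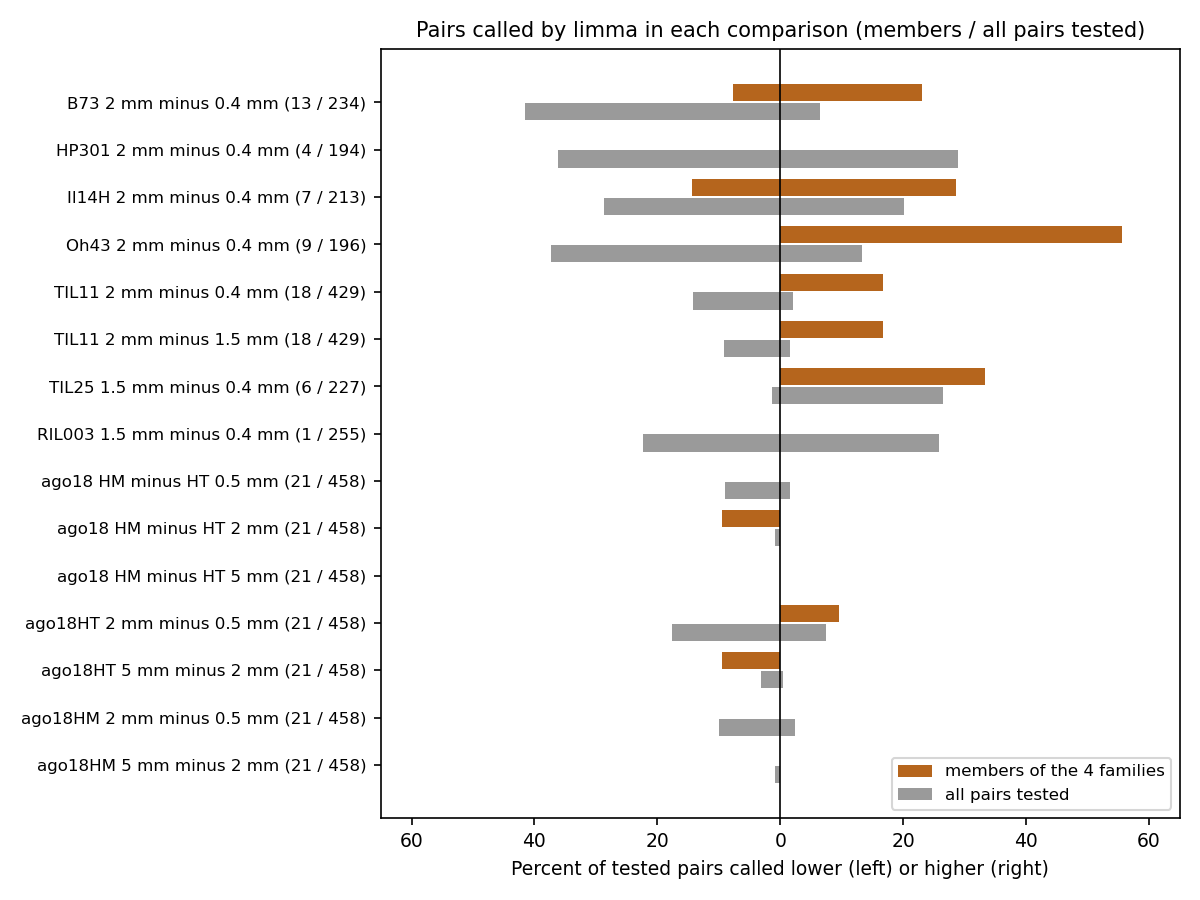
Percentage of tested members (coloured bars) and of all tested pairs (grey bars) called by limma as lower (left) or higher (right) in each comparison of anther lengths and of *ago18* genotypes, with the numbers tested in brackets. In B73, 41.5% of all pairs tested were called lower at 2 mm and 6.41% higher. Of the 4 called members of B73, 3 were listed at a single length, which fixed their direction.

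In the *ago18* libraries the miR528 target Zm00001eb324900 was read in 15 of 17. In *ago18*-HM it was at 1.49, 0 and 0.902 RPM at 0.5 mm, at 0.106, 0.582 and 0.377 RPM at 2 mm and at 0.300, 0.175 and 0 RPM at 5 mm. In *ago18*-HT it was at 0.772 and 0.643 RPM at 0.5 mm, at 1.61, 0.624 and 0.301 RPM at 2 mm and at 0.251, 0.279 and 0.0921 RPM at 5 mm. The genotypes overlapped at every length. The mean difference, mutant minus heterozygote, was −0.65 on the log2(RPM + 0.1) scale (two-sided exact permutation within lengths, *P* = 0.307, adjusted *P* = 0.833 over 458 pairs), with a limma SE of 0.56. Without replicate 3 of the 2-mm *ago18*-HT anthers it was −0.81 (adjusted *P* = 0.645). By the permutation test 0 of all pairs passed (0%), 10 had an unadjusted *P* value below 0.05, and the smallest adjusted value was 0.790.

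By limma, 0 of 21 members differed between genotypes at 0.5 mm (10.5% of all 458 pairs), 2 at 2 mm (0.873%, both lower in the mutant, 0.873%), 0 at 5 mm (0%) and 0 for the mean over the 3 lengths (5.02%). Unadjusted *P* values below 0.05 were found for 1, 2, 0 and 2 members. At 2 mm Zm00001eb315650, a miR408 target (base 626, Allen score 4), was at 0.269, 0.250 and 0.502 RPM in *ago18*-HT, from 2, 2 and 5 reads. In *ago18*-HM it was at 0, 0.0831 and 0 RPM, a difference of −1.80. It met the filter of 2 libraries through *ago18*-HT alone, which favoured this direction, so no test value is given. The call was lost with no filter on listing and with no Allen limit, under which the difference turned to 0.0858. Zm00001eb016940, a miR398 target, was at 0.427, 0.292 and 0.0833 RPM in *ago18*-HT, from 3.18, 2.34 and 0.83 reads, fractional and so uncertain counts, and listed at 0 in *ago18*-HM. Neither gene was listed at 0.5 or 5 mm in either genotype, and neither passed the authors' test in any library. Without replicate 3 of the 2-mm *ago18*-HT anthers, which stood apart, Zm00001eb315650 differed by −1.55 at 2 mm. In that refit both genes were also called for the mean over the lengths, where all their reads came from 2 mm. The share over all pairs in that refit is not given here, and no statement is drawn from these calls. Both genotype calls were lost without replicate 3 of the 2-mm *ago18*-HM anthers or without either 0.5-mm *ago18*-HT library. Without replicate 1 of the 0.5-mm *ago18*-HT anthers, which left 1 library there, the genotype difference of Zm00001eb270030 at 0.5 mm was −2.89.

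The same 2 genes made up the calls by anther length in the heterozygotes. From 0.5 to 2 mm 2 of 21 members were called in *ago18*-HT (25.1% of all pairs), both higher (7.42%), and from 2 to 5 mm 2 (3.49%), both lower (3.06%). Both genes were listed at 2 mm only, which fixed these directions, and these comparisons share the 2-mm libraries with the genotype contrast. Without replicate 1 of the 0.5-mm *ago18*-HT anthers, which left 1 library there, Zm00001eb270030 differed by −2.50 from 0.5 to 2 mm in this genotype. In *ago18*-HM, 0 members were called from 0.5 to 2 mm (12.4%) and 0 from 2 to 5 mm (0.873%), with 1 member at an unadjusted *P* value below 0.05 in each. For the change from 0.5 to 2 mm against genotype the same 2 genes were called (5.9% of all pairs called, 1.97% in the lower direction), with all their reads at 2 mm. For the change from 2 to 5 mm 0 members were called (0%), 2 having an unadjusted *P* value below 0.05. Without replicate 3 of the 2-mm *ago18*-HT anthers the latter count became 2, the same genes, and the other counts of this paragraph stayed. The shares over all pairs in that refit are not given here. Other named miR408 members of the *ago18* tables, Zm00001eb054700, Zm00001eb054730, Zm00001eb011280 and Zm00001eb033440, were listed in 3 to 5 of the 17 libraries and passed no genotype comparison.

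The 80 member pairs not named by the rule were low. Their highest libraries ranged from 0.00175 to 0.586 RPM with a median of 0.175, none exceeded 6 reads, and 45 were listed in 1 library. The authors' test was passed by 6 of them in 1 library each: RIL003_31535 above, Zm00001eb380140 and Zv00002aa017150 for miR408 with 1 read each, Zm00039ab034290 and Zv00002aa022910 for miR408 with 3 and 4 reads, and Zv00002aa022501 for miR528 with 4 reads. None of the 6 was a positive pair.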

How the data were processed

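The authors made nanoPARE and Smart-seq2 libraries from total anther RNA (76-nt single-end reads) and ran the nanoPARE pipeline per sample, with its EndCut step. The pipeline's version is not given in the sources used here. The deposited RPM of a site is scaled by the authors to reads of the library, the deposited adjusted p-value is theirs, and the Allen score is the authors' mismatch penalty. Their ratio column and the phasiRNA tables were not used.

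A pair of gene and family took its highest RPM, or 0 where unlisted. Depth was recovered from RPM steps. Within 0.01 of a read, 77.8 to 90.4% of values per library were whole, too few for a count test. Pairs at Allen score 4 or below, listed in at least 2 libraries, were fitted with limma 3.58.1 (R 4.3.3, variance trend) on log2(RPM + 0.1), group as the only term, with Benjamini-Hochberg adjustment over all pairs of a table. Permutation tests, run in Python 3.11.15 with pandas 2.3.3 and numpy 2.4.6, enumerated 3600 (lengths), 7560 (lines) and 4000 (*ago18*) labellings. Scripts were tested on simulated data. The members and lists were chosen with earlier results of these data known. Genes were named when in a positive pair, called, or highest by mean RPM for their family in a variety. A list of copper protein names could not be applied. Alternatives changed the pseudocount, filters, Allen limit, site value, centring, variance trend, replicate block and single libraries.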

Additional observations from a re-analysis of the deposited data

Results flagged for a closer look

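The miR528 set lay in opposite order between 0.4 and 2 mm in maize lines, and the difference between lines was not tested. All libraries of 2-mm anthers lay below those of 0.4-mm anthers in Il14H (−1.92 on the log2(RPM + 0.1) scale) and above them in B73 (1.79) and HP301 (2.05). Of these differences only that of B73 passed the limma test (adjusted *P* = 0.0304), against 0.0664 in Il14H and 0.170 in HP301, and it was lost in 3 of 4 refits that left out 1 library.

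In *ago18*, the change from 0.5 to 2 mm was called different between genotypes (limma interaction) at −1.80 for the miR408 target Zm00001eb315650 and −1.75 for the miR398 target Zm00001eb016940. Both genes were listed at 2 mm only, and Zm00001eb016940 only in the 3 *ago18*-HT libraries of that length, so that the filter on listing fixed its direction. Zm00001eb315650 also met that filter through these *ago18*-HT libraries alone, which favoured its direction. Neither call is therefore support for a difference between genotypes. Both calls were lost with no such filter, and that of Zm00001eb315650 turned to 0.62 with no Allen limit. The interaction calls were kept in 8 and 4 of 17 refits that left out 1 library. Depth of the 0.5-mm *ago18*-HM libraries was 1.35 to 5.40 M reads, against 6.22 to 9.06 M for *ago18*-HT, and the part of depth in these values was not tested.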

How the results depend on the processing

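Calls rest on few reads and moved with the processing. The shares over all pairs under other settings and refits are not given here, so no count below is read as a result about members. The 20 member calls by anther length within varieties became 13 with no filter on listing, 9 at an Allen score of at most 3, 7 counting only sites that passed the authors' test, and 13 with a replicate block, and stayed within 1.5 times under the other settings. The 2 calls by *ago18* genotype became 0 with no filter, with no Allen limit, at Allen 3 and with passing sites only, 1 at a pseudocount of 0.5 RPM, and 4 with no variance trend or with pairs of at least 3 reads in some library, a setting chosen after seeing the data. The 6 calls by length in *ago18* became 12 with no Allen limit and 0 at Allen 3 or with passing sites only. By comparison, B73 (4 calls) gave 2 with no filter, at Allen 3, with centring and with at least 3 reads, and 1 with passing sites only. HP301 (0) gave 3 with no Allen limit. Il14H (3) gave 0 with no filter, 1 at Allen 3 and 0 with passing sites. Oh43 (5) gave 3 at 0.5 RPM, 8 with no Allen limit, 2 at Allen 3 and 2 with passing sites. TIL25 (2) gave 1 at 0.5 RPM, with no filter, with no Allen limit and with centring, and 0 at Allen 3 and with passing sites. RIL003 (0) gave 1 with centring. Between genotypes at 0.5 mm (0 calls) no variance trend and at least 3 reads gave 1. At 2 mm (2) 0.5 RPM gave 1, and no filter, no Allen limit, Allen 3 and passing sites gave 0. For the mean over lengths (0) 0.01 RPM, no trend and at least 3 reads gave 1. In *ago18*-HT from 0.5 to 2 mm (2) Allen 3 and passing sites gave 0, and from 2 to 5 mm (2) 0.5 RPM gave 1, no Allen limit 6, and Allen 3 and passing sites 0. In *ago18*-HM no Allen limit gave 1 and 3 calls for the 2 steps (0 and 0). The interaction from 0.5 to 2 mm (2) gave 1 at 0.5 and 0.01 RPM and 0 with no filter, no Allen limit, Allen 3 and passing sites, and that from 2 to 5 mm (0) gave 1 at 0.01 RPM. With no Allen limit Zm00001eb315650 turned to 0.0858 at 2 mm and 0.62 for the interaction. The 18 positive pairs became 9 at an adjusted p below 0.01 and 40 when 1 replicate sufficed. The cause of these moves was not tested beyond what each setting changes. The permutation results stayed on their side of the threshold under every alternative run. Centring could not be run for TIL11 and *ago18*.

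Leaving out 1 library gave 16 to 22 calls by length within varieties, 0 to 4 by *ago18* genotype and 4 to 8 by length in *ago18*. By line, calls ranged from 0 to 1 (B73), 0 to 2 (HP301), 0 to 4 (Il14H) and 1 to 6 (Oh43), 2 to 3 in both TIL11 comparisons, 1 to 4 in TIL25 and 0 in RIL003. In *ago18* they were 0 to 3, 0 to 2 and 0 at 0.5, 2 and 5 mm, 0 to 2 for the mean, 2 to 5 and 2 for the steps in *ago18*-HT, 0 to 1 and 0 in *ago18*-HM, and 0 to 2 for each interaction. The miR528 set gave 0.29 to 0.92 between lengths and sums of squares of 9.89 to 18.2 at 2 mm and 1.63 to 11.9 at 0.4 mm, its *ago18* difference −0.91 to −0.24, and positive pairs 17 to 18. Where an arm kept 1 library, that library was assumed to vary like the rest.

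Replicates of the same number were not treated as paired in the main fits. Correlations of same-numbered deviations were not all over 0.1 in any table, and in *ago18* they ran from −0.20 to 0.35. With 2 replicates the deviations mirror each other, so this check cannot exclude a shared plant or batch. The replicate block gave 1 call in B73 and in TIL25, 2 in HP301, 3 in Oh43, 0 in Il14H and 1 for the interaction from 0.5 to 2 mm. With the 2-mm numbers of HP301 crossed (r −0.10), chosen after seeing the data, 0 members were called against 2 with the block.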
